A study of Mus with 8 samples.

Results

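Orosomucoid, also called alpha-1-acid glycoprotein, is a heavily glycosylated plasma protein of the lipocalin fold that hepatocytes secrete and that binds basic and lipophilic molecules, many drugs among them. It is a classic acute-phase protein: interleukin-1, interleukin-6 and glucocorticoids raise its transcription in hepatocytes, with C/EBP factors and the glucocorticoid receptor acting at its promoters. In the mouse it is encoded by the neighbouring genes Orm1, Orm2 and Orm3. These 3 genes, chosen by name out of the 54532 genes listed in the deposited table, are described here in the livers of mice with colitis. They were chosen because they were already known to be much higher in one of the 2 groups of these libraries, so their levels and fold changes are given as a description and carry no p-value.

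All mice had received dextran sulfate sodium (DSS), an oral polysaccharide that injures the colonic epithelium, at 2.5%, which was stopped on day 6. In 4 liver libraries, numbered 35, 45, 65 and 71 and labelled DSSHA, the mice had also been given a high-fat diet and alcohol. The other 4, numbered 15, 48, 49 and 50 and labelled DSS, are the comparison group. The study's design text names both a purified high-fat feed and a high-fat feed given with alcohol as interventions after DSS, and mice were assigned by weight and disease score; the sample labels give DSS alone for the comparison group, so whether it had the purified high-fat feed is not stated outright. Diet and alcohol were given together, no mice without DSS were analysed here, and strain and age are left out of the labels. Nor is it stated outright that every library came from its own mouse. The p-values given below for other genes therefore set the group difference against the spread between libraries, which need not be that between mice.

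Total counts ran from 12502300 to 16967839 per library. Mitochondrially encoded genes took 30.2 to 73.0% of them in DSSHA and 55.8 to 79.1% in DSS libraries, which left 2722757 to 10947612 counts for nuclear genes. Library 35 stood apart: only 784 of its genes held between 1 and 9 counts, where each of the other 7 libraries had 4319 to 4987 such genes, so Orm values are also given without it. All 10 hepatocyte markers listed were detected. Their summed level was 24979 to 31819 CPM (counts scaled to library size with TMM, the trimmed mean of M-values) in DSSHA and 42816 to 66606 CPM in DSS libraries, and none of the 10 passed the test for a difference. Across all tested genes 1.26% were called, so the lack of calls among 10 markers is not read as a result. Alb gave most of the sum. The other 9, a choice made after seeing the data, summed to 8422 to 12199.7 CPM in DSSHA. In DSS libraries they summed to 12190 to 16349 CPM, a narrow overlap. Alb, Ttr, Apoa1 and Trf are also in the list, given below, of plasma proteins that usually decline in inflammation. These sums therefore do not measure hepatocyte content alone. Apob, Cps1, Cyp2e1, Hnf4a and Tat, markers in neither that list nor the acute-phase list, each overlapped between the groups. In whole liver, fewer cells of a type and less RNA per cell cannot be told apart.

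The 3 genes lie in a row on the plus strand of chromosome 4 (GRCm38, coordinates from the deposited table) within 21319 bases. Orm1 (ENSMUSG00000039196) spans 63344560 to 63348163, Orm3 (ENSMUSG00000028359) 63356162 to 63359511 and Orm2 (ENSMUSG00000061540) 63362449 to 63365878. All are annotated as protein-coding, with gene lengths of 775, 773 and 775 bases used for the FPKM values (fragments per kilobase of gene length, scaled to library size). No other gene of the table overlaps any of them. Which tool counted the reads, with which strand setting, and what it did with reads matching several genes is not given in the sources used here. Reads could therefore have been split among these closely related copies or dropped, the count of each copy singly is uncertain, and the summed count is given beside them.

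All 3 orosomucoid genes were far more abundant in DSSHA livers. Summed over the 3, they reached 0.898 ± 0.203% of nuclear counts in DSSHA and 0.0734 ± 0.0209% in DSS libraries (SD, n = 4 each), a 12.2-fold difference of means. Orm1 was the main transcript in every library, Orm2 came next and Orm3 last, yet Orm2 and Orm3 differed more between the groups than Orm1 did. The edgeR log2 fold change was 3.43 ± 0.32 (SE) for Orm1, 5.81 ± 0.38 for Orm2 and 5.35 ± 0.37 for Orm3. For the summed counts it was 3.62 ± 0.31.

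Orm1, the most abundant copy, had 2024, 4368, 2925 and 3341 CPM in DSSHA libraries 35, 45, 65 and 71, against 379, 309, 260.3 and 223 CPM in DSS libraries 15, 48, 49 and 50. The groups did not overlap: the lowest DSSHA library was 5.34-fold above the highest DSS library. The means were 3165 ± 973 CPM in DSSHA and 293 ± 67.3 CPM in DSS livers (SD, n = 4 each). These values rest on 26486 to 106145 counts per DSSHA library and on 1500 to 6081 counts per DSS library. Within DSSHA, library 45 was highest and library 35 lowest, 2.16-fold apart. Within DSS, library 15 was highest and library 50 lowest, 1.70-fold apart. The order 15, 48, 49, 50 for falling Orm1 CPM is also that of rising mitochondrial share in these 4 libraries. That share runs from 55.8% in library 15 to 79.1% in library 50. With mitochondrial share as a covariate in the edgeR fit, the log2 fold change of Orm1 was 3.21. The part of that share in the Orm1 level of each library was not tested.

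Orm2 had 482, 595, 317 and 528 CPM in DSSHA libraries 35, 45, 65 and 71, against 13.5, 7.43, 5.15 and 8.04 CPM in DSS libraries 15, 48, 49 and 50. Every DSSHA library was more than an order of magnitude above every DSS library, the closest pair being 23.5-fold apart. The means were 481 ± 118 CPM in DSSHA and 8.52 ± 3.52 CPM in DSS (SD, n = 4 each). In the DSS group these levels rest on 216, 106, 43 and 54 counts in libraries 15, 48, 49 and 50. Library 15 was thus the highest of the DSS libraries for Orm2 as it was for Orm1, and the log2 fold change of Orm2 was 6.12 without it.

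Orm3 had 50.7, 88.6, 126.6 and 93.2 CPM in DSSHA libraries 35, 45, 65 and 71, against 2.0, 2.88, 1.32 and 2.53 CPM in DSS libraries 15, 48, 49 and 50. The groups did not overlap here either, with 17.6-fold between the lowest DSSHA and the highest DSS library. The means were 89.8 ± 31.1 CPM in DSSHA and 2.18 ± 0.68 CPM in DSS (SD, n = 4 each). DSS libraries 15, 48, 49 and 50 held only 32, 41, 11 and 17 Orm3 counts. Unlike Orm1 and Orm2, which were highest in library 45, Orm3 was highest in library 65, the DSSHA library with the largest mitochondrial share (73.0%). With mitochondrial share as a covariate in the edgeR fit, the log2 fold change of Orm3 was 5.51. What part that share has in the Orm3 value of library 65 was not tested.

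**Figure D1:**
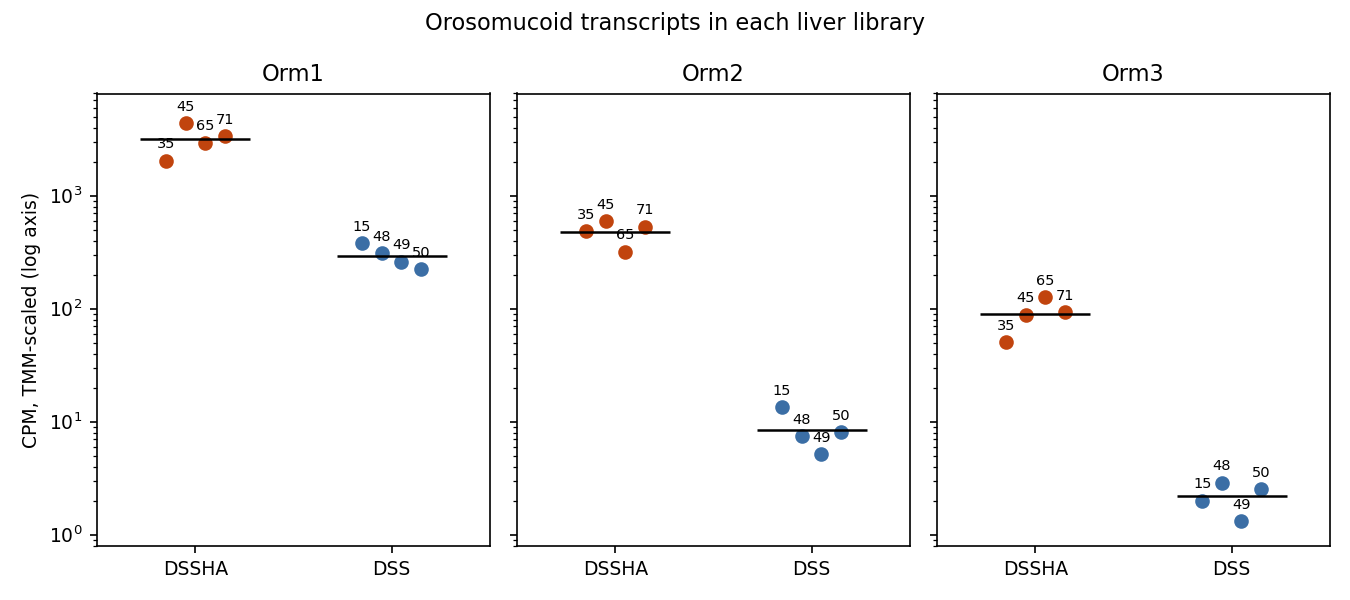
CPM of Orm1, Orm2 and Orm3 (TMM-scaled, log axis) in the 4 DSSHA and the 4 DSS libraries; each point is a library with its number, and the bar is the group mean. For each gene all DSSHA points lie above all DSS points, with group means of 3165 and 293 CPM for Orm1, 481 and 8.52 CPM for Orm2 and 89.8 and 2.18 CPM for Orm3.

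All 3 genes were among the 69 called higher in DSSHA livers (edgeR quasi-likelihood F test, adjusted p threshold of 0.05), which are 0.588% of the 11729 genes tested (0.674% were called lower). They were also among the 486 genes (4.14%) whose DSSHA values all lay above all DSS values, while 4.63% lay wholly below. Since the genes were chosen on this contrast, neither count is read as a result. Ordered by log2 fold change from the highest, Orm2 stood 3rd, Orm3 6th and Orm1 25th of the 11729. The authors' deposited table lists log2 fold changes of 3.43 for Orm1, 5.80 for Orm2 and 5.36 for Orm3, also as DSSHA over DSS. Without library 35 the log2 fold changes were 3.6 for Orm1, 5.80 for Orm2, 5.54 for Orm3 and 3.77 for the summed counts.

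The change of scale is plainest in the order of transcripts by FPKM, the deposited values per gene length, among the 22033 nuclear protein-coding genes of the table. Orm1 stood 4th to 7th from the top in the DSSHA libraries and 45th to 68th in the DSS libraries. Orm2 moved further, standing 36th to 46th in DSSHA and 920th to 1994th in DSS. Orm3 stood 112th to 278th in DSSHA and 3076th to 5043rd in DSS. None of the 3 orders overlapped between the groups. Since the genes were chosen on this contrast, that is not read as a result. How many other genes had orders that did not overlap was not counted.

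Set against albumin, the main plasma protein of liver, the summed FPKM of the 3 genes came to 33.0, 77.9, 68.9 and 74.6% of the Alb FPKM in DSSHA libraries 35, 45, 65 and 71, and to 3.95, 2.03, 1.60 and 1.72% in DSS libraries 15, 48, 49 and 50. Both sides of that ratio moved, since Alb itself was listed at 6263 to 9698 FPKM in DSSHA and at 12775 to 20955 FPKM in DSS libraries. Haptoglobin, a haemoglobin-binding acute-phase protein, was more abundant than orosomucoid in every library: the Orm sum was 24.4 to 53.7% of the Hp FPKM in DSSHA and 14.98 to 21.9% in DSS. By FPKM, the sum of the 3 Orm genes exceeded serum amyloid A1, an acute-phase apolipoprotein, in every library. It came to 145 to 726% of the Saa1 FPKM in DSSHA and 745 to 1240.3% in DSS. By counts, which are not divided by gene length, Saa1 lay above the Orm sum in DSSHA libraries 45 and 71. There Saa1 had 212858 and 219684 counts, against 122754 and 99853 for the Orm sum. In the other libraries the Orm sum was higher by counts as well. Library 35 gave the 726%, where Saa1 was 441 FPKM, the lowest of the DSSHA libraries.

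The mixture of the 3 transcripts also differed. Orm1 made up 84.2 ± 3.5% of the summed Orm counts in DSSHA and 96.5 ± 0.9% in DSS livers (SD, n = 4 each). Orm2 made up 18.9, 11.8, 9.41 and 13.3% in DSSHA libraries 35, 45, 65 and 71, against 3.41, 2.33, 1.93 and 3.44% in DSS libraries 15, 48, 49 and 50. The exact 95% binomial intervals, which cover counting error only, ran no lower than 9.09% in DSSHA and no higher than 4.46% in DSS. Orm3 made up 1.98, 1.75, 3.76 and 2.35% in DSSHA libraries 35, 45, 65 and 71, against 0.506, 0.902, 0.494 and 1.08% in DSS libraries 15, 48, 49 and 50. For Orm3 the intervals overlapped, with a lowest bound of 1.68% in DSSHA and a highest bound of 1.73% in DSS library 50, which held 17 Orm3 counts.

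In ratios within a library, which do not depend on how libraries are scaled, there were 4.20 to 9.23 Orm1 counts for each Orm2 count in DSSHA and 27.8 to 50.5 in DSS libraries. On the log2 scale the Orm2 to Orm1 ratio was -2.70 ± 0.48 in DSSHA and -5.16 ± 0.43 in DSS (SD, n = 4 each), a difference of 2.46 that ran from 2.25 to 2.63 when each library was left out. The Orm3 to Orm1 ratio was -5.16 ± 0.46 in DSSHA and -7.10 ± 0.59 in DSS, a difference of 1.94. The Orm2 to Orm3 ratio overlapped between the groups, at 2.51 to 9.52 Orm2 counts per Orm3 count in DSSHA and 2.59 to 6.75 in DSS. As a description, Orm2 and Orm3 differed from Orm1 in how much they changed, while the Orm2 to Orm3 ratio did not set the groups apart. What part the assignment of shared reads has in these ratios was not tested. In absolute terms Orm1 still carried most of the difference: of the 0.825 percentage points by which the Orm share of nuclear counts was higher in DSSHA, 83.7% came from Orm1, 13.7% from Orm2 and 2.60% from Orm3.

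**Figure D2:**
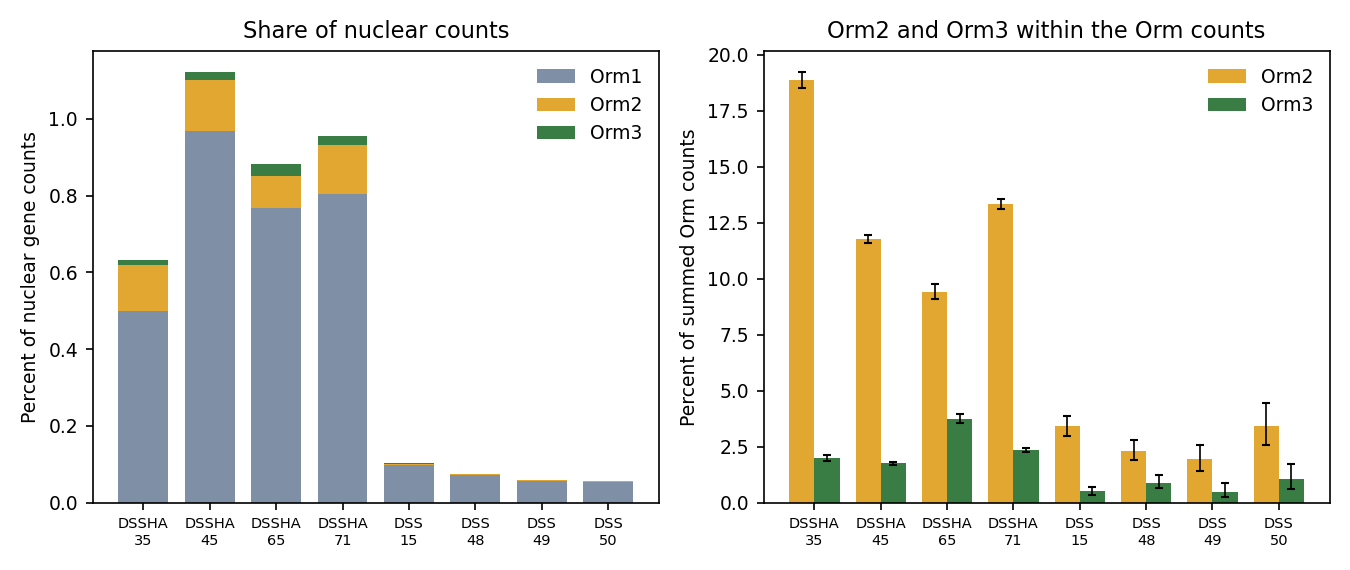
Left: percent of nuclear gene counts taken by Orm1, Orm2 and Orm3, stacked, in each library. Right: Orm2 and Orm3 as percent of the summed Orm counts, with exact 95% binomial intervals as error bars. The stacks reach 0.632 to 1.12% in DSSHA and 0.0577 to 0.103% in DSS libraries, and the Orm2 share is 9.41 to 18.9% in DSSHA and 1.93 to 3.44% in DSS.

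The spread of the Orm genes among libraries lay within the range of other acute-phase genes. Among DSSHA libraries the coefficient of variation of CPM was 30.7% for Orm1, 24.6% for Orm2 and 34.6% for Orm3. It was 70.4% for Saa1, 75.6% for Saa2 and 56.2% for Lcn2 (lipocalin 2, which captures bacterial siderophores and is of the same protein family), genes whose log2 fold changes of 5.78, 5.94 and 5.73 were like that of Orm2. Other genes that rose varied as little or less, with 19.7% for Apcs and 24.8% for Hp, and the median over the acute-phase genes that rose was 34.0%. In the low-level DSS group it was 23.0, 41.3 and 31.2% for Orm1, Orm2 and Orm3. The differences in spread were not tested. In the list of acute-phase proteins of hepatocytes, with the 3 Orm genes added, Orm2 stood 2nd, Orm3 5th and Orm1 7th of 42 by log2 fold change.

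**Figure D3:**
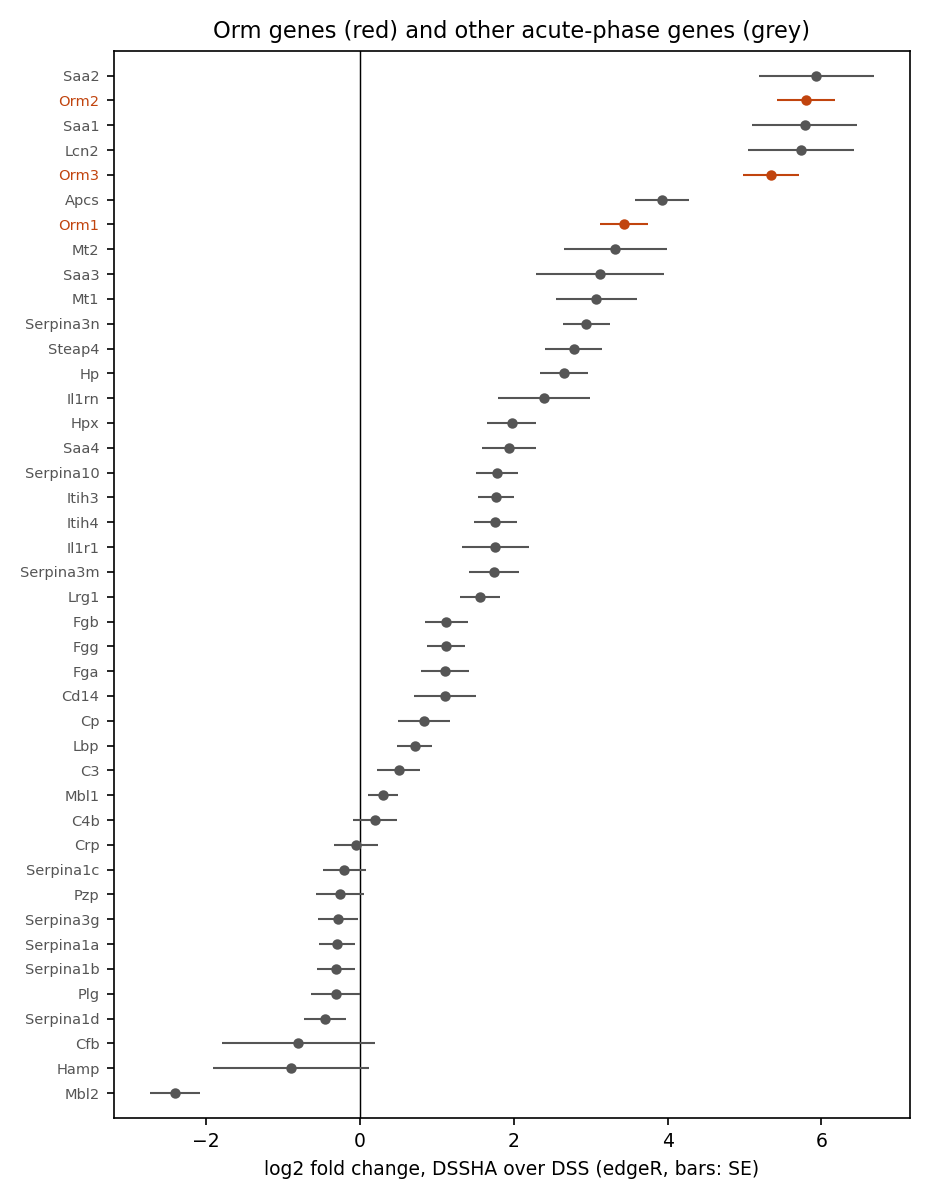
Log2 fold change, DSSHA over DSS, with SE (edgeR), for the 3 Orm genes in red and 39 other tested acute-phase genes in grey, ordered by value. Orm2 at 5.81 and Orm3 at 5.35 lie in the top group with Saa2, Saa1 and Lcn2, and Orm1 at 3.43 lies next to Apcs at 3.93.

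Of the 39 other acute-phase genes tested, 16 rose, 1 fell and 22 did not pass; 1.26% of all tested genes were called in either direction. Their median log2 fold change was 1.12, against -0.01 over all tested genes. Serum amyloid P component, Apcs, rose by 3.93 ± 0.35 (SE; edgeR adjusted p = 0.00043), and the protease inhibitor gene Serpina3n by 2.95 ± 0.30 (edgeR adjusted p = 0.0011). Hp rose by 2.66 and Saa1 by 5.78 (edgeR adjusted p = 0.0026 each). The member that fell was Mbl2, a mannose-binding lectin gene named after its value was seen (log2 fold change -2.40, edgeR adjusted p = 0.0048). The count of calls was 9 without DSS library 48 and 9 with mitochondrial share added as a covariate. Of 14 tested negative acute-phase proteins, plasma proteins that usually decline in inflammation, none passed (edgeR; 1 higher and 5 lower at an unadjusted p under 0.05; 1 higher and 3 lower with DESeq2; none with limma-voom). Beside the 1.26% called over all tested genes, the lack of calls in this list is not read as a result. The smallest p in the list belonged to Alb, at -1.20 (edgeR adjusted p = 0.115). The next were the antithrombin gene Serpinc1 at -0.86, the transferrin gene Trf at 0.84 and the retinol carrier gene Rbp4 at -0.80. One member passed without DSSHA library 65 and 2 without DSSHA library 71. All gene lists used here were chosen with earlier results of these data known.

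The genes whose profile over the 8 libraries was nearest to that of the summed Orm counts were Fcor, Apcs, Dnajc12, Hp, Mvk and Treh, in that order. Nearness was the root-mean-square difference of log2 CPM after each gene was centred on the mean of its 2 group means. It was 0.43 for Fcor, 0.47 for Apcs, 0.47 for Dnajc12, 0.58 for Hp, 0.64 for Mvk and 0.64 for Treh, against a median of 1.92 over all tested genes. All these profiles come from the same 8 libraries and the group difference enters the measure, so it carries no test. Apcs and Hp are acute-phase genes. Dnajc12, a co-chaperone of the aromatic amino acid hydroxylases, had 39.6 ± 3.6 CPM in DSSHA and 4.98 ± 0.26 CPM in DSS (SD, n = 4 each). Mvk encodes mevalonate kinase, an enzyme of cholesterol synthesis, and Treh encodes trehalase. In DSS libraries 15, 48, 49 and 50 Mvk had 37, 21, 6 and 9 counts and Treh 22, 12, 3 and 3. At such low counts log2 CPM depends in part on the prior count of 2. Fcor, a corepressor of Foxo1, was scarce, with 11, 52, 11 and 18 counts in DSSHA libraries 35, 45, 65 and 71 and 1, 0, 0 and 0 counts in DSS libraries 15, 48, 49 and 50, so that its profile depends on the prior count of 2. By the same measure Orm3 lay 0.94 and Orm2 1.17 from the summed profile, which Orm1 dominates.

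**Figure D4:**
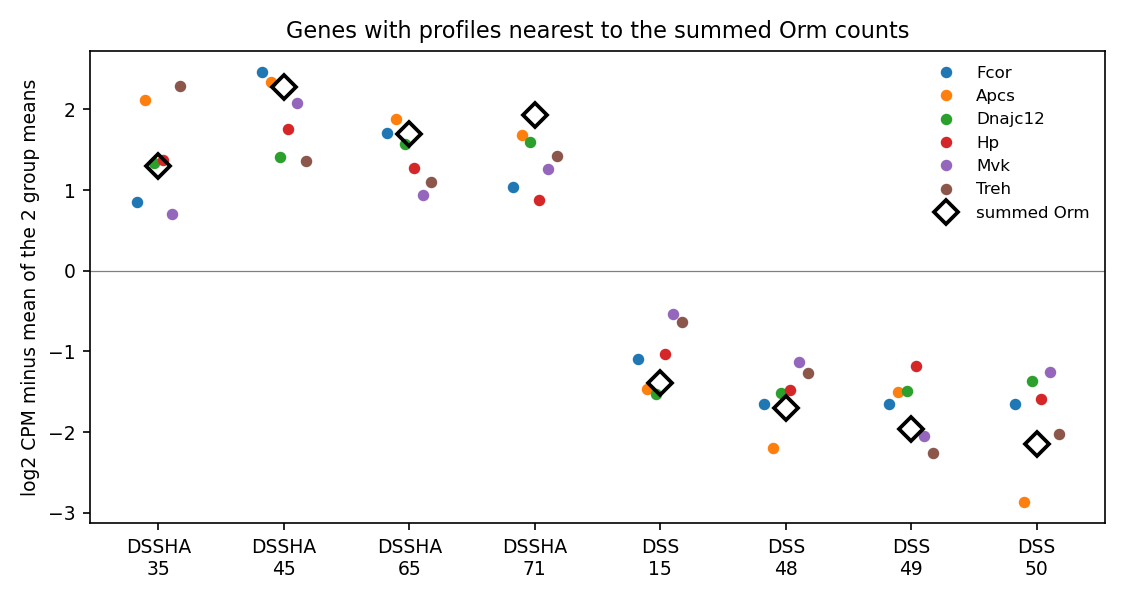
Log2 CPM minus the mean of the 2 group means, for the summed Orm counts (open diamonds) and the 6 genes with the nearest profiles (dots), in each library. The summed Orm values run from 1.30 to 2.28 in DSSHA and from -2.15 to -1.40 in DSS libraries.

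Of 29 tested genes of interleukin-6, interleukin-1 and STAT3 signalling, which act upstream of orosomucoid, none rose and 1 fell in edgeR (3.45%, against 1.26% of all tested genes); at an unadjusted p under 0.05, 9 were higher and 2 lower, DESeq2 called 4 higher and 1 lower, and limma-voom 0 and 1. The gene that fell was Lifr, a cytokine receptor gene of the interleukin-6 family (log2 fold change -2.21 ± 0.32, edgeR adjusted p = 0.0066). With the mitochondrial share as covariate it stood at -2.34 and missed the threshold (edgeR adjusted p = 0.055), and with scaling by total counts alone at -1.55 (0.083). The NF-kappaB cofactor gene Nfkbiz stood at 1.77 (edgeR adjusted p = 0.053), the interleukin-1 receptor gene Il1r1 at 1.76 (0.091) and the receptor antagonist gene Il1rn at 2.40 (0.092). With the mitochondrial covariate the list's 1 call was a rise, that of Il1r1, at 2.36 (edgeR adjusted p = 0.015). The list held 3 calls without DSSHA library 35, 2 without DSSHA library 71 and 3 without DSS library 15. Socs3, which STAT3 induces, and the receptor genes Il6ra and Il6st were picked after their values were seen, and stood at 2.07, -0.14 and -0.19, none past the test.

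Of 18 tested transcription factors of orosomucoid and acute-phase promoters, none passed (edgeR; 1 higher and 1 lower at an unadjusted p under 0.05; none with DESeq2 or limma-voom). Across all tested genes 1.26% were called, so the lack of calls in this list is not read as a result. The smallest p-values belonged to Cebpa at -0.92, Stat3 at 0.82, the bile acid receptor gene Nr1h4 at 0.50 and Onecut1 at -1.48 (edgeR adjusted p = 0.171 to 0.452). Without DSS library 15, Stat3 passed, at 1.18 (edgeR adjusted p = 0.046). Of the factors long known to act on orosomucoid promoters, picked here after their values were seen, Cebpb stood at 0.24 ± 0.50, Cebpd at -0.32 ± 0.37 and the glucocorticoid receptor gene Nr3c1 at -0.12 ± 0.22. Of 17 tested glucocorticoid receptor targets, 2 rose, 1 fell and 14 did not pass, where 0.588% of all tested genes were called higher and 0.674% lower. Those that rose were Lcn2 and the metallothionein gene Mt2 (3.32, edgeR adjusted p = 0.034), both also in the acute-phase list. The one that fell was Angptl4, an inhibitor of lipoprotein lipase (-1.13, edgeR adjusted p = 0.027). The clock gene Per1 stood at -1.22 without passing. The count was 1 without DSS library 48 or 49 and with the mitochondrial covariate. The calls of Mt2 and Angptl4 were lost under 10 and 7 of the 17 alternatives.

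Orosomucoid leaves the hepatocyte with branched, sialylated glycans, and once these lose sialic acid the asialoglycoprotein receptor clears it. Of 24 tested genes of glycan branching, sialylation and that receptor, none passed (edgeR; 2 higher and 2 lower at an unadjusted p under 0.05; none with DESeq2 or limma-voom). With 1.26% of all tested genes called, the lack of calls here is not read as a result. The receptor subunit genes Asgr2 and Asgr1, the second named after its value was seen, stood at -0.59 ± 0.26 and -0.05 ± 0.21. Gne and Nans, which act in sialic acid synthesis, stood at 0.58 and 0.82, and the mannosidase gene Man1a at -0.63. The list of other lipocalin-family genes left out the major urinary protein genes. Of its 6 tested genes, Lcn2 rose by 5.73 ± 0.69 (edgeR adjusted p = 0.0027) and 5 did not pass. By comparison, 0.588% of all tested genes were called higher. C8g, a complement subunit, stood at -1.32, Rbp4, also in the negative acute-phase list, at -0.80 and Apom, an apolipoprotein, at -0.72. The list held 2 calls without DSSHA library 35, with C8g lower (edgeR adjusted p = 0.014).

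The genes around the cluster were not called. Since only 1.26% of all tested genes were called in either direction, this is not read as a result. Of 23 other genes within 500 kb, 13 had no count in any library and 6 were tested, of which none passed (edgeR; 0 higher and 1 lower at an unadjusted p under 0.05; 1 lower with DESeq2; none with limma-voom). Col27a1, a collagen gene that ends 9569 bases before Orm1, had 16.97 ± 8.75 CPM in DSSHA and 39.7 ± 7.65 CPM in DSS (SD, n = 4 each; log2 fold change -1.23 ± 0.35, edgeR adjusted p = 0.143), and it passed as lower without DSSHA library 65 (edgeR adjusted p = 0.039). Akna, a gene of the minus strand that ends 1247 bases after Orm2, had 1.85 ± 1.07 CPM in DSSHA and 2.01 ± 1.65 CPM in DSS. Ambp, a lipocalin-family gene 189761 bases before the cluster, stood at 0.49 ± 0.28 (edgeR adjusted p = 0.559). Between Orm1 and Orm3 lies an unprocessed pseudogene, Gm11212 (63350411 to 63353846), named after its values were seen. It had 13 counts in library 45, 5 in library 65 and 0 in the other 6 libraries. One of those 6 is library 35, where only 784 genes held 1 to 9 counts, so its 0 need not mean absence.

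Other cell types were looked for by their markers. No monocyte and macrophage, endothelial, stellate cell or cholangiocyte marker was called, against 1.26% of all tested genes. No lymphocyte marker had enough counts to be tested. The sums of these 5 lists overlapped between the groups. Summed over 13 neutrophil markers, the level was 30.2 to 64.1 CPM in DSSHA and 4.19 to 15.9 CPM in DSS libraries, and 3 of the 4 tested were called higher, against 0.588% of all tested genes. S100a8 and S100a9 gave most of that sum. S100a8 had 11.5 to 23.8 CPM in DSSHA and 0.599 to 5.11 CPM in DSS libraries. S100a9 had 12.0 to 25.6 CPM in DSSHA and 1.68 to 5.80 CPM in DSS libraries. The granule genes Ltf and Elane held 7 and 25 counts over all libraries. Both had 0 in library 35, as did Csf3r. Only 784 genes of that library held 1 to 9 counts, so such a 0 need not mean absence. For 9 Kupffer cell markers the sums were 346 to 678 CPM in DSSHA and 219 to 346 CPM in DSS, with 1 called higher. That gene was Marco, a scavenger receptor gene, at 54.9 to 403 CPM in DSSHA and 6.11 to 12.5 CPM in DSS libraries. Without it, a choice made after seeing the data, the sums of the other 8 overlapped, at 249.8 to 564 CPM in DSSHA and 211 to 336 CPM in DSS. Fat is another source of orosomucoid. Summed over 7 adipocyte markers, the level was 25.4 to 52.2 CPM in DSSHA and 16.4 to 138.7 CPM in DSS libraries. Over all libraries Cidec had 3747 and Fabp4 1754 counts, while Plin1, Cfd and Retn had 2, 17 and 4. Adipoq and Lep had no count in any library. The part of these cells in the Orm values was not tested.

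**Figure D5:**
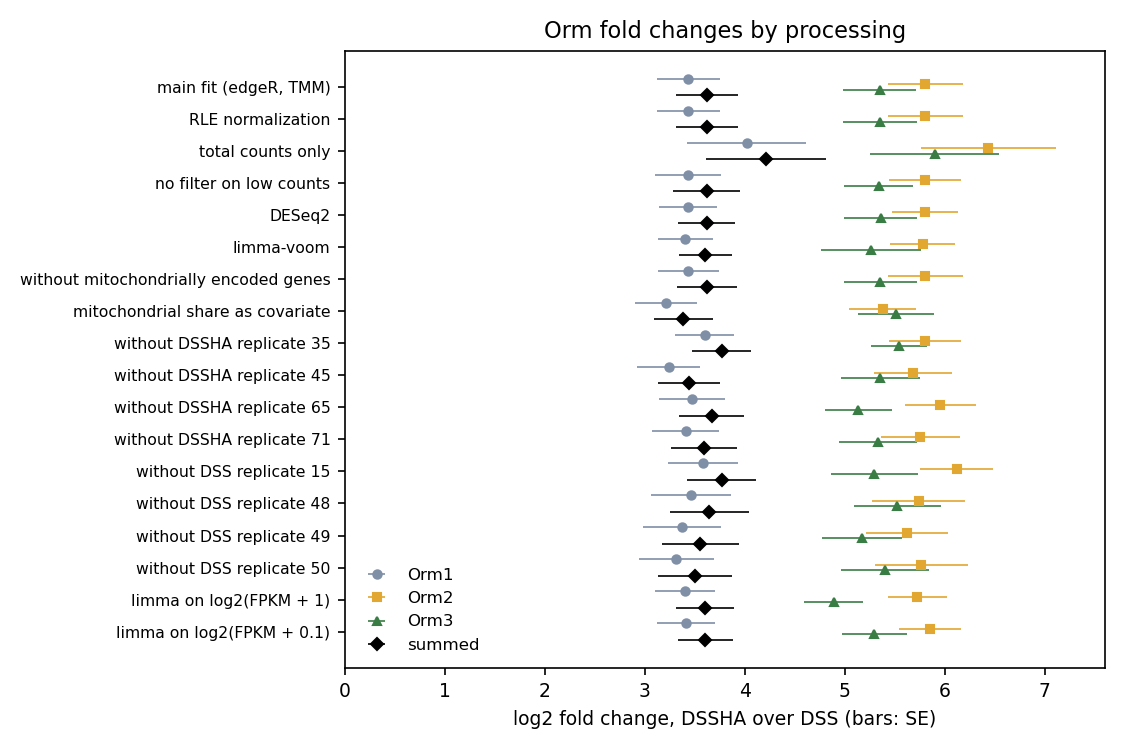
Log2 fold change, DSSHA over DSS, with SE, of Orm1, Orm2, Orm3 and their summed counts in the edgeR fit and under each alternative. All values are above 3 and Orm1 stays below Orm2 and Orm3 in every row; scaling by total counts alone gives the highest values, 4.02 for Orm1, 6.43 for Orm2, 5.90 for Orm3 and 4.21 for the sum.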

How the data were processed

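The members and the gene lists were chosen with earlier results of these data known. The authors deposited raw counts per gene and library, FPKM values, their own log2 fold change with group means as scaled signal, and a p-value and adjusted p-value; the builds named in the submitters' processing notes are GRCm38 and mm10. Aligner and counting tool: not given in the sources used here. Counts were filtered with filterByExpr, which left 11729 of 54532 genes, and then scaled by TMM to CPM. The robust quasi-likelihood F test of edgeR 4.0.16 under R 4.3.3 compared the groups, with Benjamini-Hochberg adjustment over all tested genes. SE is the log2 fold change divided by the root of F. Log2 CPM used a prior count of 2. No library number is shared between the groups.

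Named genes were the members, the 6 nearest profiles and the smallest p-values of each list (at most 4). The nearest tested gene on each side of the cluster was also named. Any other gene, such as Saa2 or a single cell marker, was named after its values were seen, also where this is not said. Alternatives used DESeq2 1.42.0 and limma 3.58.1 (voom, and log2(FPKM + 1) and log2(FPKM + 0.1)).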

Additional observations from a re-analysis of the deposited data

Results flagged for a closer look

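Of 94 sets of 4 libraries checked (the Orm measures and the named genes, by group), 5 had a library far from the other 3, measured as its gap to the nearest library divided by the range and held against the 95% critical value of Dixon's test; chance flags about 1 in 20. None concerned an Orm value. All were in the DSS group. In DSS library 15, Lcn2 had 43.5 CPM against 9.19 to 12.4 CPM in the other 3 (gap 0.907), Saa1 had 169 CPM against 71.7 to 82.2 CPM (0.892), and Stat3 had 59.5 CPM against 24.7 to 30.0 CPM (0.850). Library 15 was also the highest of the DSS libraries for Orm1 and Orm2. Fcor had its only DSS count in library 15 (gap 1), and Akna had 4.47 CPM in DSS library 50 against 1.05 to 1.32 CPM in the other 3 (0.922).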

How the results depend on the processing

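No paired analysis was possible because the groups share no library number. The Orm log2 fold changes kept their direction under all 17 alternatives. Leaving out each library gave 3.24 to 3.6 for Orm1, 5.62 to 6.12 for Orm2, 5.14 to 5.54 for Orm3 and 3.44 to 3.77 for the sum. With mitochondrial share as a covariate they were 3.21, 5.38, 5.51 and 3.38. Scaling by total counts alone moved them to 4.02, 6.43, 5.90 and 4.21, and moved the median of all genes to 0.63. The mean Orm share was 0.499% in DSSHA and 0.0270% in DSS with all counts as denominator. Without the 10 top nuclear genes it was 1.16% in DSSHA and 0.0930% in DSS. Leaving out a library gave 0.824 to 0.987% in DSSHA and 0.0637 to 0.0787% in DSS. The Orm2 share of Orm counts was 11.5 to 14.7% in DSSHA and 2.56 to 3.06% in DSS when a library was left out.

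The count of genes called, 148 (69 higher, 79 lower), was 281 with total counts only (237 higher, 44 lower), 320 without a filter on low counts, 440 with DESeq2 and 55 with the mitochondrial covariate, and 58 to 308 when a library was left out (308 without DSSHA 35, 83 without DSSHA 45, 58, 74 and 77 without DSS 48, 49 and 50). Calls in the acute-phase list were 23 with total counts only, 20 without a filter and 23 with DESeq2. They were 9 with the mitochondrial covariate and 9 to 17 leaving out a library. Calls were 2 without a filter, 4 with DESeq2, 1 with log2(FPKM + 1) and 0 to 2 leaving out a library for the negative acute-phase list; 6 with total counts only, 3 without a filter, 5 with DESeq2 and 1 to 3 for interleukin signalling; 0 to 1 for transcription factors; 5 without a filter, 8 with DESeq2, 1 with the covariate and 1 to 3 for glucocorticoid targets; 2, 3 and 1 to 2 for lipocalins without a filter, with DESeq2 and leaving out a library; and 1, 1 and 0 to 1 for flanking genes. For interleukin signalling the direction changed as well. With total counts only, 6 were called higher and 0 lower, and without a filter 2 higher and 1 lower. The main fit called 0 higher and 1 lower. The cause of the changes in all these counts was not tested. Of the named genes that passed, Mvk lost its call under 6 and Treh under 3 alternatives. Orm3 levels in DSS livers rest on 11 to 41 counts per library, which limits their precision.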
